A study of Mus musculus with 8 samples.

Results

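The 29 genes described here encode the enzymes that build cholesterol from acetyl-CoA, the SREBP proteins that control those enzymes, and 2 proteins that handle finished sterol. They were taken by symbol from a list of sterol synthesis and SREBP genes, and that list was chosen with earlier results of these data known. All 29 were among the 25780 genes in each count file, and all 29 passed the filter on low counts that left 20235 genes for testing. The genes were measured in dorsal root ganglia, where sensory neurons have their cell bodies among satellite glia and Schwann cells, in 8 RNA-seq libraries from 4 groups of mice with 2 libraries each.

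Cholesterol is made in the endoplasmic reticulum. Acetyl-CoA is turned into mevalonate and then into isoprene units, which are joined into farnesyl diphosphate. Farnesyl diphosphate either leaves toward protein prenylation, dolichol and ubiquinone or is committed to squalene, which is closed into lanosterol and trimmed to cholesterol. The genes are switched on together by the membrane-bound transcription factors SREBP-1 and SREBP-2, encoded by Srebf1 and Srebf2. When sterol is low, the escort protein Scap carries SREBP to the Golgi, where the proteases encoded by Mbtps1 and Mbtps2 release its active part. When sterol is high, the Insig proteins hold Scap back. In peripheral nerve, Schwann cells make cholesterol for myelin and neurons need sterol for their long axonal membranes.

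The inducible knockout mice (iKO) had the genotype Avil-iCreERT2/AJwo /G9aflox/flox: both copies of Ehmt2, the gene for the histone methyltransferase G9a, were floxed, and an inducible Cre was driven by Avil, a gene of sensory neurons. The wild-type mice (WT) were littermates lacking Cre. Whether they carried the floxed alleles, and the age and sex of the mice, are not given in the sources used here. The same holds for the inducing agent and for the number of animals behind a library, so p-values here measure only the spread among the libraries, which may be technical. CFA (complete Freund's adjuvant, an agent that causes lasting inflammation) or its vehicle was given in the left paw to mice of either genotype, and ganglia were taken 14 days later. The design thus asked how CFA changed the ganglia, how loss of G9a in sensory neurons changed them, and whether the CFA response depended on G9a.

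Libraries held 26312614 to 42971823 reads. Ehmt2 was measured at 74.4 and 65.4 CPM (read counts scaled to a common library size) in the WT vehicle libraries, 74.2 and 61.3 in WT CFA, 34.0 and 31.6 in iKO vehicle, then 45.0 and 44.2 in iKO CFA, so the iKO libraries lay below the WT libraries under both treatments. The log2 difference was -1.09 ± 0.18 (SE) under vehicle (edgeR adjusted p = 0.00655) and -0.60 ± 0.18 under CFA (edgeR adjusted p = 0.154). All 14 sensory neuron markers examined had reads in every library. Both WT vehicle libraries stood apart from the other 6: a sum over 10 lymphocyte and plasma cell markers was 2135 and 878 CPM there against 3.71 to 53.6 CPM elsewhere, and 8 skeletal muscle markers summed to 398 CPM in WT vehicle 1 against 1.20 to 6.09 CPM in the others, where 7 of the 8 were at 0 in at least 1 library. The mitochondrial share of reads was 12.6% in WT CFA 2 and 1.40% to 6.40% in the other libraries. Since 3 of the comparisons below use the WT vehicle libraries, each is also given without either of them.

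The promoters were searched for the short sequences through which SREBP and its usual partners act. RefSeq start sites on GRCm38.p6 gave a promoter, from 250 bases before the start to 50 bases after it, for 25 of the 29 genes. Fdps, Fdft1, Sqle and Stard4 had no promoter there and were not searched. The classical sterol regulatory element, TCACCCCAC on either strand, was found in 1 of the 25 genes, Hmgcs1, and in 0.614% of 27025 genes with a promoter in the same table. Allowing any base at its middle position (TCACNCCAC) found the same single gene, against 1.44% of genes. The NF-Y box CCAAT was present in 21 of the 25 genes (84.0%) and in 41.1% of all genes, and 13 of the 25 had 2 or more boxes, against 13.3% of all genes. The Sp1 box GGGCGG was present in 22 of the 25 (88.0%) and in 38.2% of all genes. The 4 genes without CCAAT were Acat2, Scap, Mbtps1 and Mbtps2. These are matches of letters in a fixed window and were not tested as binding sites.

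Shown next are the 250 bases before the start of 4 genes, 5′ to 3′ on the strand of the gene, with CCAAT boxes (ATTGG where the box lies on the other strand) and the sterol regulatory element in capitals. Hmgcs1 (chr13:119690101-119690350, plus strand) is shown because it alone held the classical element, 137 bases before its start. Mvk (chr5:114444019-114444268, plus strand) had the most CCAAT boxes of the 25 genes, with 5. Tm7sf2 (chr19:6067851-6068100, minus strand) and Lbr (chr1:181842402-181842651, minus strand) encode enzymes for the same step. Their log2 values had opposite signs for CFA in WT and for iKO against WT under vehicle. Those of Lbr did not pass the edgeR test, and with CFA in iKO both genes had positive values.
Hmgcs1: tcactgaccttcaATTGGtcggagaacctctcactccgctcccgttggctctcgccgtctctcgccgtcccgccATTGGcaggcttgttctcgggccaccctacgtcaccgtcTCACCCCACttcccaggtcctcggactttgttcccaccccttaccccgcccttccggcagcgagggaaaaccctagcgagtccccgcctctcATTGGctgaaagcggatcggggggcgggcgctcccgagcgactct
Mvk: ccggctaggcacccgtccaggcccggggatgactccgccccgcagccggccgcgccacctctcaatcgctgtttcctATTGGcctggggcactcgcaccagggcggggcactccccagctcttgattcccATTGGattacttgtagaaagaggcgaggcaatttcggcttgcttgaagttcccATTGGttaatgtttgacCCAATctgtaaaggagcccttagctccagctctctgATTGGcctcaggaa
Tm7sf2: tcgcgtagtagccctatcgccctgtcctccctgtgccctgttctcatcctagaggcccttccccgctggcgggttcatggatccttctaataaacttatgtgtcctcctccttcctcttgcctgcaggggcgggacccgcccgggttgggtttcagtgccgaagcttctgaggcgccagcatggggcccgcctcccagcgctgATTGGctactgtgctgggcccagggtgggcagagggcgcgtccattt
Lbr: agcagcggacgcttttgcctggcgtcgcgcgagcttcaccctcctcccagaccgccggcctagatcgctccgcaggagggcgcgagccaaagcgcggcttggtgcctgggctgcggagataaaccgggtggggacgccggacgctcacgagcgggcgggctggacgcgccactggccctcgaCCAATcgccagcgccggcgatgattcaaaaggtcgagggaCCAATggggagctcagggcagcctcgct

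Across the 29 genes, the WT vehicle libraries were the low ones. The lowest of the 8 values lay in WT vehicle 1 for 16 genes and in WT vehicle 2 for 4. The median deviation of the 29 genes from their own 8-library mean, on the log2(CPM + 1) scale, was -0.50 and -0.39 in the WT vehicle libraries. It was 0.27 and 0.11 in WT CFA, 0.16 and 0.20 in iKO vehicle, then 0.08 and -0.05 in iKO CFA. The same median over all 20235 tested genes stayed between -0.09 and 0.01 in each library. Together the 29 genes took 0.324% and 0.338% of all reads in the WT vehicle libraries and 0.376% to 0.433% in the other 6. In this bulk RNA, fewer cells of a type and less RNA per cell cannot be told apart.

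**Figure D1:**
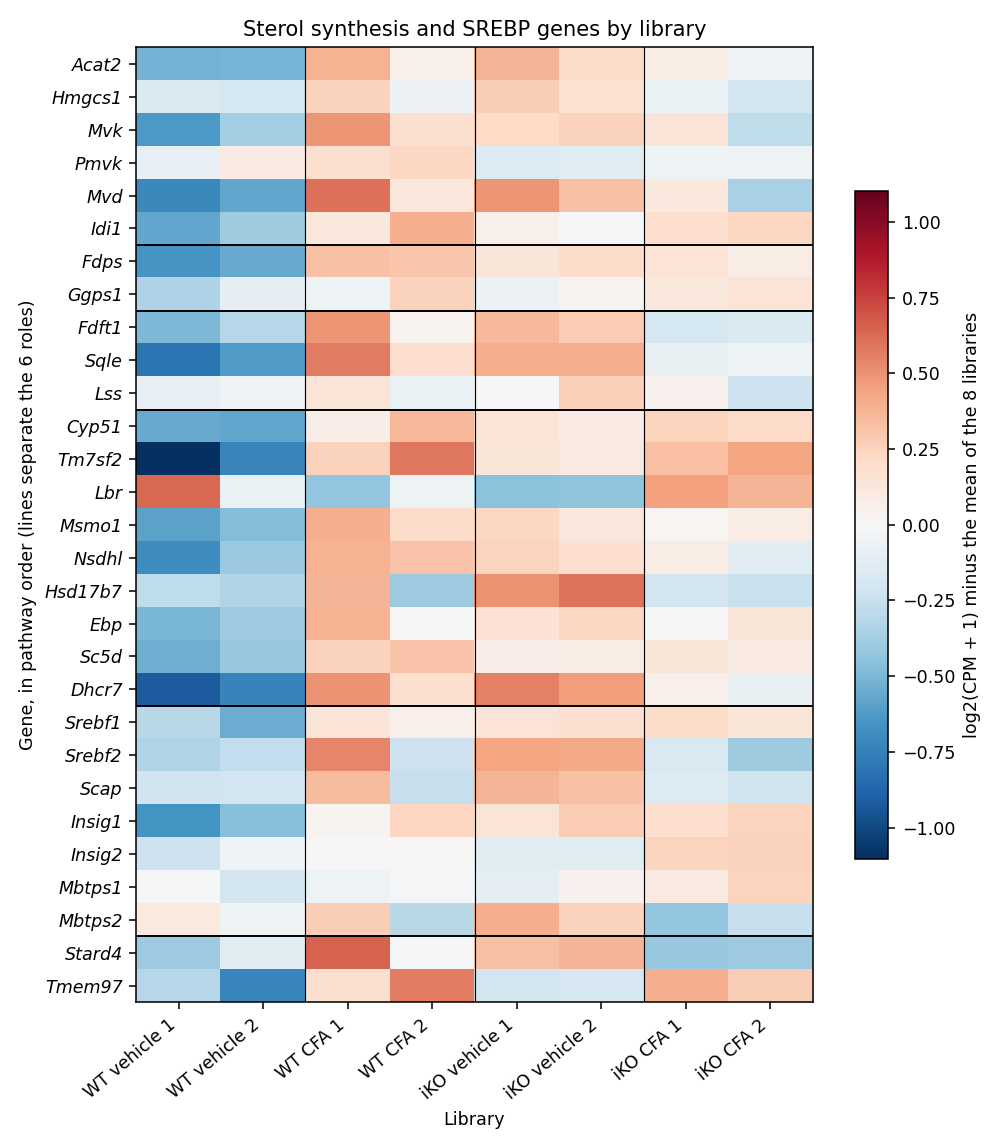
Each row is one of the 29 genes in pathway order, each column a library, and the colour is log2(CPM + 1) minus the gene's mean over the 8 libraries (red higher, blue lower), with horizontal lines between the 6 roles. The WT vehicle columns are mostly blue (2 and 1 genes above their mean), Lbr runs against the other rows, and a few rows such as Srebf2, Scap, Hsd17b7 and Mbtps2 are pale or blue again in WT CFA 2 and both iKO CFA libraries.

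In WT mice, 15 of the 29 genes rose with CFA and 0 fell (edgeR quasi-likelihood test, Benjamini-Hochberg adjusted p under 0.05 over all genes tested), while 8.12% of all tested genes rose. The median log2 fold change of the 29 genes was 0.68, against -0.03 for all tested genes. For 23 of the 29, both CFA libraries lay above both vehicle libraries, which held for 25.3% of tested genes. Most of the enzymes after lanosterol rose (7 of 9), as did most of those before isopentenyl diphosphate (4 of 6), whereas 1 of the 7 SREBP control genes did. The median fold change of the 29 genes was similar without WT vehicle 1 (0.63) and without WT vehicle 2 (0.76). Most or all of the calls among the 29 were then lost, and fewer of all genes passed too. Without WT CFA 2, 22 genes rose and Lbr fell, when 29.9% of all genes tested passed in either direction. Leaving out any 1 iKO library, which enters this comparison through the estimate of spread, also lost most calls among the 29. Fewer of all genes passed there too. With the WT libraries alone 0 of the 29 passed (4.04% of all genes tested).

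Under vehicle, 16 of the 29 genes were higher in iKO than in WT and 0 were lower by the same test, while 8.28% of all tested genes were higher. The median log2 difference was 0.67, against 0.02 for all tested genes. Both iKO libraries lay above both WT libraries for 25 genes (38.9% of tested genes) and below them for 2, Pmvk and Lbr (36.5% of tested genes). Of the 9 enzymes after lanosterol, 8 were higher. This comparison uses the same WT vehicle libraries as the CFA comparison in WT. The median of the 29 was 0.61 without WT vehicle 1 and 0.70 without WT vehicle 2, but most or all of their calls were lost. Leaving out any 1 iKO library also lost most of these calls. In each of these refits fewer of all genes passed too. Without WT CFA 1 or WT CFA 2, 21 were higher and Lbr was lower, when 39.2% and 38.9% of all genes tested passed in either direction.

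The first steps, from acetyl-CoA to isopentenyl diphosphate, are described in order. Acat2, the thiolase that joins acetyl-CoA units, stood at 61.2 and 61.5 CPM in WT vehicle, 116 and 92.0 in WT CFA, 115 and 102 in iKO vehicle, then 93.4 and 84.9 in iKO CFA. Its WT vehicle values lay below the other 6 without overlap. The log2 fold change with CFA was 0.76 ± 0.18 (SE) in WT (edgeR adjusted p = 0.0275), and the log2 difference between genotypes under vehicle was 0.82 ± 0.18 (edgeR adjusted p = 0.0209). Hmgcs1 makes the substrate of mevalonate synthesis and was the most abundant of the 29 per exon length. It stood at 726 and 711 CPM in WT vehicle, 968 and 779 in WT CFA, 982 and 914 in iKO vehicle, then 771 and 704 in iKO CFA. Its range was narrow, and it did not pass the test in any comparison: with CFA in WT its log2 fold change was 0.28 ± 0.19 (edgeR adjusted p = 0.342).

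Mevalonate is then phosphorylated by the kinases Mvk and Pmvk, decarboxylated by Mvd and isomerised by Idi1. Mvd stood at 19.8 and 22.0 CPM in WT vehicle, 51.1 and 36.0 in WT CFA, 46.9 and 41.7 in iKO vehicle, then 36.2 and 25.7 in iKO CFA. It was among the strongest in both comparisons with WT vehicle, with log2 values of 1.06 ± 0.24 for CFA in WT (edgeR adjusted p = 0.0216) and 1.08 ± 0.24 for iKO against WT (edgeR adjusted p = 0.0190). Mvk stood at 33.8 and 40.8 CPM in WT vehicle, 75.0 and 60.3 in WT CFA, 62.2 and 63.6 in iKO vehicle, then 58.9 and 43.7 in iKO CFA. It rose by 0.86 ± 0.21 log2 units with CFA in WT (edgeR adjusted p = 0.0288). Idi1 stood at 72.2 and 82.3 CPM in WT vehicle, 117 and 143 in WT CFA, 112 and 107 in iKO vehicle, then 123 and 127 in iKO CFA. Unlike Mvd and Mvk, its iKO CFA values lay above its iKO vehicle values. Idi1 rose with CFA in WT (0.75 ± 0.18, edgeR adjusted p = 0.0263), but its genotype difference under vehicle did not pass (0.51 ± 0.18, edgeR adjusted p = 0.0823). Pmvk moved least, from a low of 57.6 CPM in iKO vehicle 1 to a high of 75.2 CPM in WT CFA 2, with all 5 of its adjusted p-values above the threshold.

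At the branch point, Fdps makes farnesyl diphosphate and Ggps1 extends it to the geranylgeranyl diphosphate used to anchor small GTPases. Fdps stood at 153 and 164 CPM in WT vehicle, 301 and 298 in WT CFA, 265 and 278 in iKO vehicle, then 268 and 255 in iKO CFA. The other 6 libraries formed a narrow band well above WT vehicle. Fdps rose by 0.92 ± 0.17 with CFA in WT (edgeR adjusted p = 0.0115) and was higher by 0.78 ± 0.17 in iKO under vehicle (edgeR adjusted p = 0.0179). Ggps1 ranged from 55.7 CPM in WT vehicle 1 to 85.0 CPM in WT CFA 2 and passed in no comparison (0.33 ± 0.18 with CFA in WT, edgeR adjusted p = 0.242).

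Squalene is made by Fdft1, given an oxygen by the epoxidase Sqle, a slow and controlled step, and closed into lanosterol by Lss. Sqle stood at 149 and 168 CPM in WT vehicle, 388 and 297 in WT CFA, 344 and 345 in iKO vehicle, then 246 and 251 in iKO CFA. Its iKO CFA libraries lay between WT vehicle and the other 4. Sqle rose by 1.11 ± 0.20 log2 units with CFA in WT (edgeR adjusted p = 0.0100) and was higher by 1.12 ± 0.20 in iKO under vehicle (edgeR adjusted p = 0.00861). Fdft1 had the same order, at 187 and 213 CPM in WT vehicle, 370 and 271 in WT CFA, 339 and 320 in iKO vehicle, then 232 and 237 in iKO CFA. It was higher in iKO under vehicle (0.72 ± 0.20, edgeR adjusted p = 0.0422) and just missed the threshold with CFA in WT (0.68 ± 0.20, edgeR adjusted p = 0.0516). Lss stayed between 32.8 and 46.4 CPM in all 8 libraries, and its log2 fold change with CFA in WT was 0.11 ± 0.19 (edgeR adjusted p = 0.731).

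Lanosterol is demethylated by Cyp51 and then reduced by either of a pair of enzymes, encoded by Tm7sf2 and Lbr. Tm7sf2 had the largest CFA change of the 29 genes in WT. It stood at 34.6 and 45.1 CPM in WT vehicle, 90.3 and 114 in WT CFA, 83.1 and 80.9 in iKO vehicle, then 95.0 and 102 in iKO CFA, so all 6 other libraries stood clear of WT vehicle. The log2 fold change with CFA in WT was 1.36 ± 0.20 (edgeR adjusted p = 0.00571), and iKO exceeded WT under vehicle by 1.04 ± 0.20 (edgeR adjusted p = 0.0123). Cyp51 followed it with smaller steps, at 135 and 134 CPM in WT vehicle, 211 and 258 in WT CFA, 221 and 213 in iKO vehicle, then 237 and 232 in iKO CFA. It rose with CFA in WT by 0.80 ± 0.18 (edgeR adjusted p = 0.0212).

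Lbr encodes the lamin B receptor, which also ties heterochromatin to the nuclear envelope. Lbr stood at 32.0 and 19.2 CPM in WT vehicle, 14.7 and 19.4 in WT CFA, 14.6 and 14.6 in iKO vehicle, then 28.0 and 26.6 in iKO CFA. WT vehicle 1 and both iKO CFA libraries were the 3 high ones, and the WT vehicle and WT CFA groups overlapped. None of its 4 comparisons between single groups passed the edgeR test: the log2 values were -0.59 ± 0.26 for CFA in WT, -0.81 ± 0.26 for iKO against WT under vehicle, 0.90 ± 0.26 for CFA in iKO and 0.68 ± 0.26 for iKO against WT under CFA. Scaled by exon length, group means were 9.05 CPM per kb for Tm7sf2 and 5.37 for Lbr in WT vehicle, 23.2 and 3.57 in WT CFA, 18.6 and 3.07 in iKO vehicle, then 22.4 and 5.74 in iKO CFA. Per length, Tm7sf2 was thus the more abundant of the pair in every group, and in WT vehicle 1 the pair came closest, at 7.86 and 6.72 CPM per kb.

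The extra methyl groups of the ring are then removed by Msmo1, Nsdhl and Hsd17b7 in turn. Msmo1 stood at 146 and 158 CPM in WT vehicle, 290 and 253 in WT CFA, 257 and 240 in iKO vehicle, then 223 and 232 in iKO CFA, and it rose with CFA in WT by 0.84 ± 0.17 (edgeR adjusted p = 0.0169). Nsdhl stood at 42.5 and 51.7 CPM in WT vehicle, 90.2 and 86.2 in WT CFA, 82.0 and 78.4 in iKO vehicle, then 73.1 and 63.4 in iKO CFA, and it rose by 0.91 ± 0.18 (edgeR adjusted p = 0.0142). Both had WT vehicle values below all other libraries. Hsd17b7 differed from its partners: it stood at 63.4 and 61.2 CPM in WT vehicle, 100 and 58.1 in WT CFA, 109 and 117 in iKO vehicle, then 66.6 and 64.9 in iKO CFA. Only WT CFA 1 and the iKO vehicle libraries were high, so the WT groups overlapped. Hsd17b7 was higher in iKO under vehicle (0.86 ± 0.25, edgeR adjusted p = 0.0447), and its log2 fold change with CFA in WT was 0.35 ± 0.25 (edgeR adjusted p = 0.359).

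The last steps are the isomerase Ebp, the desaturase Sc5d and the reductase Dhcr7. Dhcr7 stood at 64.1 and 72.9 CPM in WT vehicle, 173 and 138 in WT CFA, 180 and 168 in iKO vehicle, then 127 and 116 in iKO CFA. It had the largest genotype difference under vehicle of the 29 genes, 1.35 ± 0.19 (edgeR adjusted p = 0.00389), and rose with CFA in WT by 1.18 ± 0.19 (edgeR adjusted p = 0.00713). Its iKO CFA values lay between those of WT vehicle and the remaining 4 libraries, as for Sqle. Sc5d stood at 126 and 137 CPM in WT vehicle, 220 and 229 in WT CFA, 193 and 195 in iKO vehicle, then 201 and 196 in iKO CFA, and it rose with CFA in WT by 0.77 ± 0.17 (edgeR adjusted p = 0.0190). Ebp stood at 23.0 and 24.7 CPM in WT vehicle, with 33.1 to 43.5 CPM elsewhere, and it showed a rise of 0.68 ± 0.19 with CFA in WT (edgeR adjusted p = 0.0398).

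**Figure D2:**
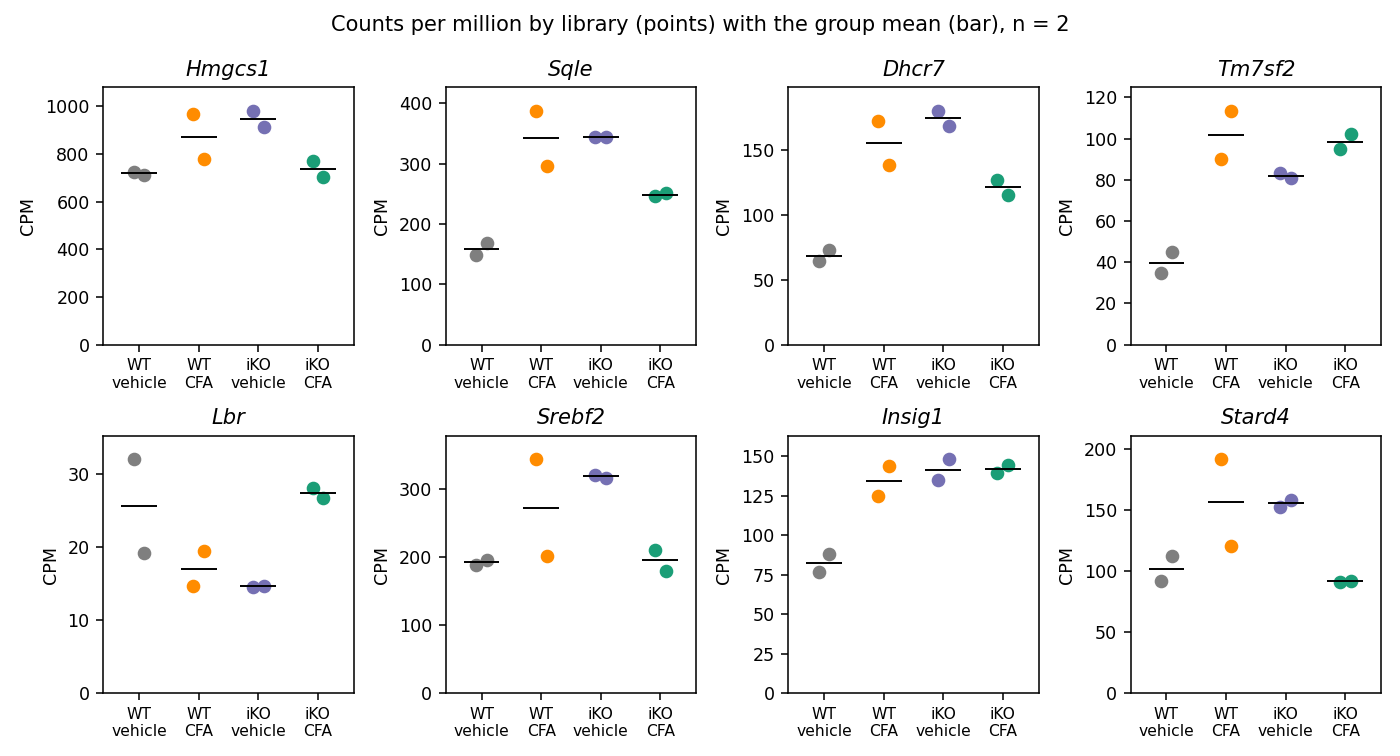
CPM (linear axis from 0) of 8 of the genes in the 4 groups, each point a library and each bar the mean of n = 2. Sqle and Dhcr7 have their low values in WT vehicle and intermediate ones in iKO CFA, Tm7sf2 and Insig1 are high in all 3 other groups, and Lbr is highest in WT vehicle 1 and iKO CFA.

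Of the SREBP control genes, Insig1 and Srebf1 were low in WT vehicle alone. Srebf2 and Scap were low in WT vehicle, WT CFA 2 and iKO CFA, and Mbtps1, Mbtps2 and Insig2 had other orders. Insig1, which retains SREBP and is itself a target of it, stood at 76.9 and 87.8 CPM in WT vehicle, 125 and 144 in WT CFA, 135 and 148 in iKO vehicle, then 139 and 145 in iKO CFA. It rose with CFA in WT by 0.70 ± 0.18 (edgeR adjusted p = 0.0302) and was higher in iKO under vehicle by 0.78 ± 0.18 (edgeR adjusted p = 0.0212). Srebf1, whose product favours fatty acid genes, stood at 64.9 and 54.8 CPM in WT vehicle, with 83.6 to 92.6 CPM elsewhere. It was higher in iKO under vehicle (0.59 ± 0.17, edgeR adjusted p = 0.0445) and missed the threshold with CFA in WT (0.53 ± 0.17, edgeR adjusted p = 0.0636).

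Srebf2, whose product favours cholesterol genes, had a different order. It stood at 188 and 196 CPM in WT vehicle, 344 and 201 in WT CFA, 321 and 317 in iKO vehicle, then 211 and 180 in iKO CFA. WT CFA 1 and the iKO vehicle libraries were high, and WT CFA 2 and both iKO CFA libraries were near the level of WT vehicle. Its log2 values were 0.50 ± 0.25 for CFA in WT (edgeR adjusted p = 0.198) and 0.73 ± 0.25 for iKO against WT under vehicle (edgeR adjusted p = 0.0787). Scap had the same high libraries, at 84.5 CPM in WT CFA 1 and 86.3 and 83.1 in iKO vehicle, with the other 5 between 55.4 and 59.6 CPM. The metalloprotease gene Mbtps2 was lowest in WT CFA 2 and iKO CFA, at 17.3, 15.8 and 17.9 CPM, with the other 5 libraries between 20.9 and 28.8 CPM. The serine protease gene Mbtps1 stayed between 76.5 and 105 CPM and Insig2 between 36.2 and 50.7 CPM, both with their 2 highest values in iKO CFA. None of Srebf2, Scap, Mbtps1, Mbtps2 and Insig2 passed the edgeR test in any comparison, and over the whole comparison of CFA in WT their log2 values ran from -0.02 ± 0.23 for Mbtps2 to 0.50 for Srebf2.

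Of the sterol transfer genes, Stard4, a cytosolic sterol carrier, stood at 92.1 and 112 CPM in WT vehicle, 192 and 121 in WT CFA, 153 and 159 in iKO vehicle, then 91.2 and 92.3 in iKO CFA. It was highest in the same 3 libraries as Srebf2, and neither its CFA change in WT (0.61 ± 0.24, edgeR adjusted p = 0.105) nor its genotype difference under vehicle (0.61 ± 0.24, edgeR adjusted p = 0.106) passed. Tmem97, a membrane protein of the endoplasmic reticulum linked to cholesterol handling, stood at 11.6 and 8.52 CPM in WT vehicle, 16.7 and 22.2 in WT CFA, 12.6 and 12.8 in iKO vehicle, then 19.7 and 17.9 in iKO CFA. Tmem97 was thus high in both CFA groups; it rose with CFA in WT by 0.95 ± 0.23 (edgeR adjusted p = 0.0283), and its log2 value was 0.56 ± 0.23 with CFA in iKO (edgeR adjusted p = 0.156).

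With CFA in iKO mice, 0 of the 29 genes passed the edgeR test in either direction. This was also a comparison in which 0.0395% of all tested genes passed. The median log2 fold change of the 29 was -0.13, against 0.00 for all tested genes. Both CFA libraries lay above both vehicle libraries for 10 genes (33.9% of tested genes) and below them for 15 (35.6% of tested genes). At an unadjusted p under 0.05, which 28.6% of tested genes reached, 3 genes were higher (Insig2, Lbr and Tmem97) and 8 lower (Dhcr7, Fdft1, Hsd17b7, Mbtps2, Scap, Sqle, Srebf2 and Stard4). DESeq2 called 6, with Lbr higher and Dhcr7, Hsd17b7, Mbtps2, Srebf2 and Stard4 lower, and 20.7% of all genes to which it gave an adjusted p. The iKO libraries of one group lay close together, with a median gap of 0.06 to 0.07 log2 units over the 29 genes, against 0.18 in WT vehicle and 0.31 in WT CFA. The edgeR call used 1 spread over all 4 groups: with the spread taken from the iKO libraries alone 16 of the 29 passed, 5 higher and 11 lower, when 22% of all genes tested were called higher and 23.4% lower. Without WT CFA 1 or WT CFA 2, 3 were higher and 10 lower, when 32.2% and 32% of all genes passed in either direction.

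The CFA response differed between the genotypes for 12 of the 29 genes, by a test of the difference itself. For 11 of them the log2 CFA response was lower in iKO than in WT, while 3.17% of all tested genes were called in that direction. For 1, Lbr, it was higher, the direction called for 6.19% of tested genes. The largest differences were -1.70 ± 0.26 for Dhcr7 (edgeR adjusted p = 0.00926), -1.58 ± 0.27 for Sqle (edgeR adjusted p = 0.0135) and -1.58 ± 0.33 for Mvd (edgeR adjusted p = 0.0268). Their responses were 1.18 ± 0.19 in WT and -0.52 ± 0.19 in iKO for Dhcr7, 1.11 ± 0.20 and -0.47 ± 0.19 for Sqle, and 1.06 ± 0.24 and -0.52 ± 0.24 for Mvd. For Lbr the response was -0.59 ± 0.26 in WT and 0.90 ± 0.26 in iKO, a difference of 1.49 ± 0.37 (edgeR adjusted p = 0.0422). The other 8 were Acat2, Mvk, Fdps, Fdft1, Tm7sf2, Msmo1, Nsdhl and Stard4, with differences from -1.38 ± 0.33 for Stard4 to -0.97 for Fdps and Msmo1. In Tm7sf2 both responses had the same sign, 1.36 ± 0.20 in WT and 0.27 ± 0.20 in iKO, and the difference of -1.09 ± 0.28 passed (edgeR adjusted p = 0.0467). Of the 7 SREBP control genes, 0 passed by edgeR. Srebf2 had the largest value among them, -1.21 ± 0.36 (edgeR adjusted p = 0.0666). At an unadjusted p under 0.05, which 31% of tested genes reached, it was joined by Scap and Insig1. DESeq2 called Srebf2 lower, as it did 8.64% of all genes to which it gave an adjusted p.

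**Figure D3:**
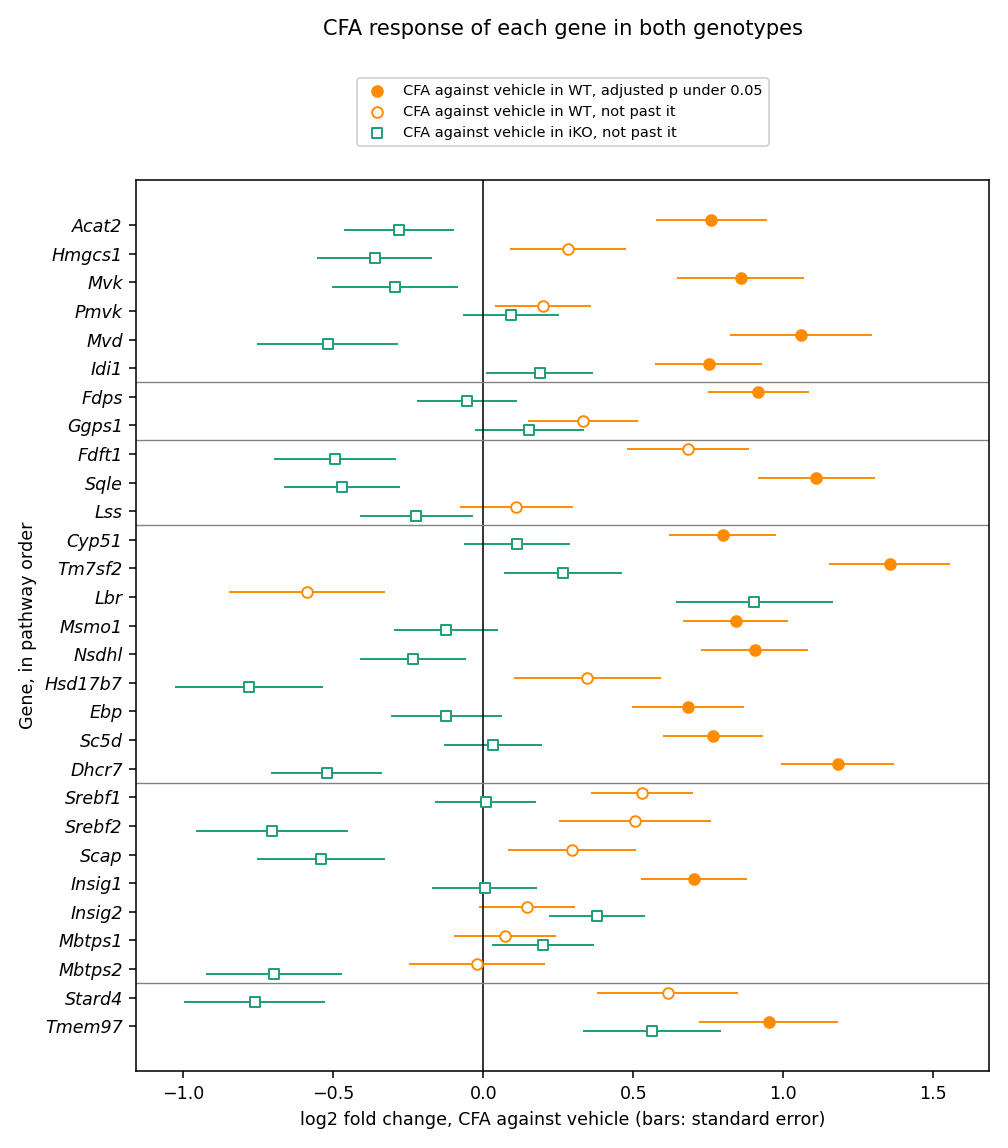
Log2 fold change of CFA against vehicle for each gene, in pathway order, with its standard error as bars (orange circles WT, green squares iKO, filled where the edgeR adjusted p was under 0.05, lines between the 6 roles). The WT values lie right of 0 for 27 genes and the iKO values on both sides of it (12 above, 17 below), with Lbr on opposite sides from most of its neighbours.

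The difference between responses draws on all 4 groups, the WT vehicle libraries among them. Most or all of the edgeR calls among the 29 were lost when 1 WT vehicle library or 1 iKO library was left out. Fewer of all genes passed in those refits too. Without WT CFA 1, 18 of the 29 and 21.4% of all genes tested passed, and without WT CFA 2, 22 of the 29 and 38.2% of all genes. The median difference over the 29 genes was -0.81 with all libraries (-0.04 over all tested genes) and between -0.96 and -0.73 in these 8 refits.

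Under CFA, 0 of the 29 genes passed between iKO and WT by edgeR, in a comparison where 1.7% of tested genes passed. The median log2 difference was -0.22, against -0.02 for all tested genes. Both iKO libraries lay above both WT libraries for 3 genes, Lbr, Insig2 and Mbtps1 (21.6% of tested genes), and below them for 11 (16.7% of tested genes), among them Hmgcs1, Fdps, Sqle, Dhcr7 and Stard4. At an unadjusted p under 0.05, which 14.7% of tested genes reached, Lbr was higher and Sqle and Stard4 lower. DESeq2 called 1 of the 29, Stard4, lower, and 5.76% of all genes to which it gave an adjusted p. Stard4 had the largest difference, -0.77 ± 0.24 (edgeR adjusted p = 0.175). Without WT CFA 2, 10 genes were lower in iKO and Lbr was higher, when 15.4% of all genes tested were called lower and 11.4% higher.

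Fatty acid synthesis is the other main output of SREBP, and its genes were low in the same libraries. The median deviation of 20 fatty acid and other SREBP target genes was -0.39 and -0.38 in WT vehicle and between -0.03 and 0.26 in the other 6 libraries. With CFA in WT 6 of the 20 rose and 0 fell, where 8.12% of all tested genes rose and 8.71% fell. Their median log2 fold change was 0.61, against -0.03 for all tested genes. Under vehicle 5 of the 20 were higher in iKO, where 8.28% of all tested genes were higher. Scd1, the stearoyl-CoA desaturase, stood at 711 and 760 CPM in WT vehicle, 1683 and 1939 in WT CFA, 1232 and 1260 in iKO vehicle, then 1465 and 1485 in iKO CFA. It rose with CFA in WT by 1.30 ± 0.19 (edgeR adjusted p = 0.00526), and its response was smaller in iKO (difference -1.06 ± 0.26, edgeR adjusted p = 0.0422). Thrsp, a lipogenic protein of unclear mechanism, was higher in iKO under vehicle by 1.97 ± 0.30 (edgeR adjusted p = 0.00489). Fasn and Acly, which make palmitate and its acetyl-CoA, passed in no comparison: Fasn stood at 228 and 231 CPM in WT vehicle, 556 and 187 in WT CFA, 534 and 509 in iKO vehicle, then 233 and 180 in iKO CFA, the order of libraries seen for Srebf2.

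Of 14 genes of oxysterol signalling and sterol efflux, 0 rose and 2 fell with CFA in WT, where 8.71% of all tested genes fell. Under vehicle 0 of the 14 were higher and 2 lower in iKO, where 9.33% of all tested genes were lower. Ch25h makes an oxysterol that blocks SREBP processing. It stood at 8.11 and 7.51 CPM in WT vehicle, 0.72 and 0.41 in WT CFA, 1.13 and 0.57 in iKO vehicle, then 1.33 and 1.34 in iKO CFA. It fell with CFA in WT by 3.76 ± 0.47 log2 units (edgeR adjusted p = 0.00309), was lower by -3.18 ± 0.46 in iKO under vehicle (edgeR adjusted p = 0.00406), and the CFA responses differed by 4.40 ± 0.64 (edgeR adjusted p = 0.00754). Abca1, the sterol efflux pump of the plasma membrane, stood at 178 and 152 CPM in WT vehicle, 94.0 and 48.0 in WT CFA, 86.2 and 73.1 in iKO vehicle, then 42.5 and 49.9 in iKO CFA, with a fall of 1.22 ± 0.30 with CFA in WT (edgeR adjusted p = 0.0285).

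Of 14 genes that use the prenyl branch, 4 rose and 0 fell with CFA in WT (8.12% of all tested genes rose), and 3 were higher in iKO under vehicle (8.28% of all tested genes were higher). Srd5a3, which makes dolichol for protein glycosylation, stood at 13.2 and 20.0 CPM in WT vehicle, with 40.9 to 53.2 CPM elsewhere, and it rose with CFA in WT by 1.53 ± 0.23 (edgeR adjusted p = 0.00570). Dolk, the dolichol kinase, rose by 0.70 ± 0.16 (edgeR adjusted p = 0.0235). Of 9 genes for the regulated breakdown of sterol proteins, 2 rose with CFA in WT, Pgrmc1 and Rnf139 (8.12% of all tested genes rose). Of 18 genes for sterol storage and movement, 2 rose and 2 fell with CFA in WT, near the shares of all tested genes. In the comparisons without the WT vehicle libraries, the smallest adjusted p of these 5 lists were those of Pmp2, a lipid-binding protein of myelin, with CFA in iKO (2.02 ± 0.49, edgeR adjusted p = 0.0943) and of Thrsp between genotypes under CFA (1.38 ± 0.29, edgeR adjusted p = 0.0585).

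Markers of the cells in the ganglion also differed between the libraries. The 14 sensory neuron markers summed to 12630 and 16160 CPM in WT vehicle, 25850 and 18360 in WT CFA, 25120 and 25460 in iKO vehicle, then 16980 and 16700 in iKO CFA. Of these markers 4 rose with CFA in WT (8.12% of all tested genes), 3 were higher in iKO under vehicle (8.28%) and 5 had a lower CFA response in iKO (3.17%). WT CFA 1 and the iKO vehicle libraries, where Srebf2, Scap, Hsd17b7 and Stard4 were high, were also the 3 with the highest neuron marker sums. The 15 myelinating Schwann cell markers summed to 13860 and 7908 CPM in WT vehicle, 8622 and 20730 in WT CFA, 7311 and 8388 in iKO vehicle, then 18750 and 17460 in iKO CFA. Their 3 highest sums were those of WT CFA 2 and iKO CFA, and none of the 15 was at 0 in any library. The part of these shifts in cell markers, and of the lymphocyte and muscle markers of the WT vehicle libraries, in the results on the sterol genes was not tested.

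**Figure D4:**
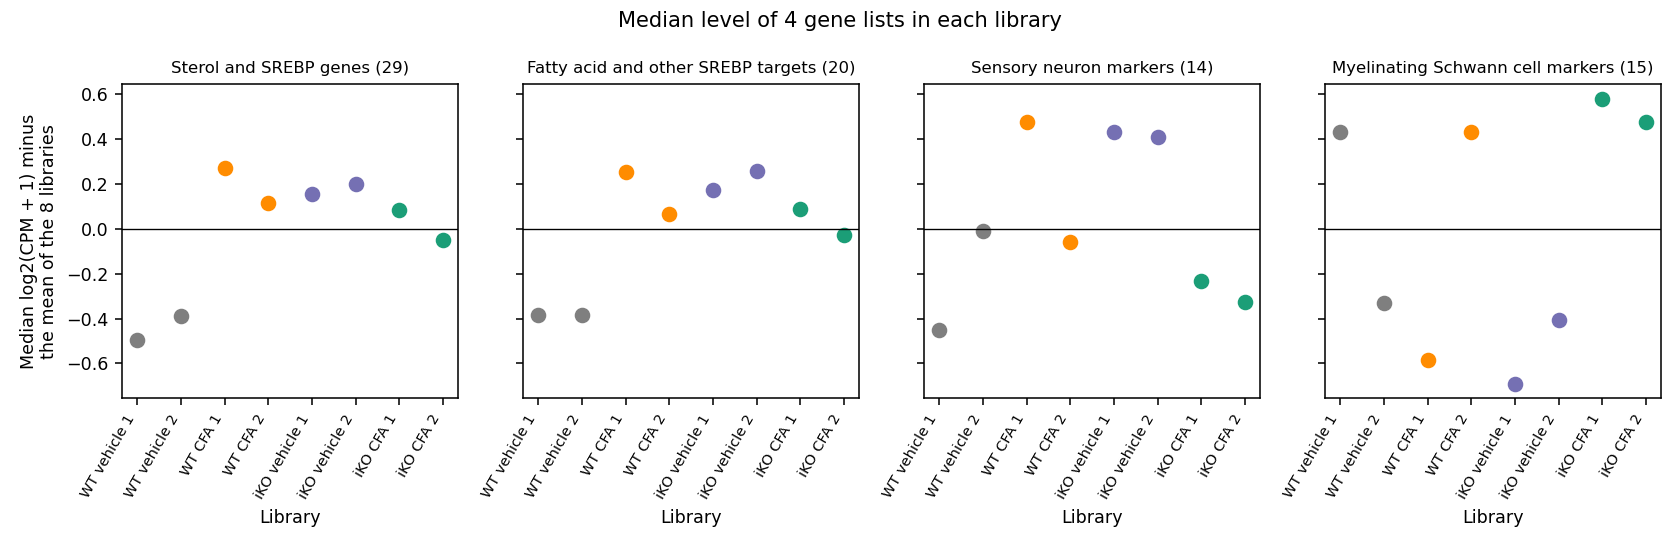
Median deviation from the 8-library mean, on the log2(CPM + 1) scale, of 4 gene lists in each library (colours mark the groups, number of genes in brackets). The sterol and the fatty acid lists are lowest in both WT vehicle libraries (-0.50 and -0.39, -0.39 and -0.38). Neuron markers are low in WT vehicle 1 (-0.449) and iKO CFA (-0.235 and -0.328) but not in WT vehicle 2 (-0.012). Myelin markers are high in WT vehicle 1, WT CFA 2 and iKO CFA.

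Compared per exon length in WT vehicle, the 29 genes spanned from 156 CPM per kb for Hmgcs1 to 2.19 for Mbtps2. Fdft1 (47.3), Fdps (37.7), Pmvk (37.6) and Cyp51 (30.5) came next after Hmgcs1, and Lss (3.39) and Lbr (5.37) were the least abundant enzymes of the synthesis path. Fdps and Pmvk did not differ beyond the spread between libraries, at 36.4 and 39.0 against 35.1 and 40.1 CPM per kb. In iKO vehicle Hmgcs1 was again first at 206 CPM per kb, with Fdft1 at 78.1, Fdps at 64.5 and Sqle at 62.1. Some counts may include reads of a neighbour. In the GENCODE M21 annotation 18.3% of the exon bases of Fdft1 overlap Ctsb on the other strand, and Ctsb, a lysosomal protease gene, was itself at 1153 and 1276 CPM in WT vehicle against 2091 to 2248 CPM elsewhere. Exons of Mbtps2 share 28.4% of their bases with Yy2, those of Fdps 26.7% with a predicted gene and those of Tm7sf2 12.1% with Vps51, all on the same strand. Exons of Scap (13.2% of their bases) and Hmgcs1 (12.1%) overlap genes on the other strand, and smaller overlaps occur in others of the 29. How the authors' counting treated these bases is not given in the sources used here, so the values of these genes are less certain.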

How the data were processed

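Per the submitters' processing notes, the authors aligned reads to GRCm39 with HISAT2 2.2.1, used SAMtools 1.19.2, and made gene counts with featureCounts 2.0.6. The deposited values are raw counts per gene symbol. The annotation and strand setting are not given in the sources used here. The 8 files held the same 25780 genes and 0 columns of other samples.

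Counts were analysed with edgeR 4.0.16 in R 4.3.3. After filterByExpr, 20235 genes remained, with at least 99.9% of each library's reads. CPM used TMM-scaled library sizes. A quasi-likelihood model with 1 mean per group was fitted to all 8 libraries, and two-sided F-tests were adjusted by Benjamini-Hochberg over all tested genes (threshold 0.05). Fold changes are log2 ± SE. Libraries of a group differed by more than sampling noise. The script was tested on simulated data.

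All 29 genes could be named. In the other lists, up to 4 genes per comparison could be named, those of smallest p; genes beyond this rule (Fasn and Acly for CFA in WT, Ctsb, Vps51 and Yy2) were chosen after their values were seen. Members and lists were chosen with earlier results of these data known. Exon lengths and overlaps came from GENCODE M21 and promoters from RefSeq, both on GRCm38 builds, so gene coordinates in the files' build are not given. Alternatives were no filter, RLE scaling, DESeq2 1.42.0, legacy = FALSE, a replicate block, the compared groups only, and each library left out. The genotype comparison of the sterol degradation list is not reported here.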

Additional observations from a re-analysis of the deposited data

Results flagged for a closer look

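For 12 of the 29 genes the CFA response differed between genotypes by edgeR's test of the difference itself. As the log2 response in iKO minus that in WT, the values were -1.04 for Acat2, -1.15 for Mvk, -1.58 for Mvd, -0.97 for Fdps, -1.18 for Fdft1, -1.58 for Sqle, -1.09 for Tm7sf2, -0.97 for Msmo1, -1.14 for Nsdhl, -1.70 for Dhcr7, -1.38 for Stard4 and 1.49 for Lbr. For Dhcr7, Sqle, Mvd, Mvk, Acat2, Fdft1, Msmo1, Nsdhl and Stard4, both CFA libraries lay above both vehicle libraries in WT and below both in iKO. Counted alone, the first held for 25.3% and the second for 35.6% of all tested genes. These genes were picked by the difference in the same libraries, so this order is no further evidence for it. The calls were lost without WT vehicle 1 and without any 1 of the iKO libraries, and fewer of all genes passed in those refits too.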

How the results depend on the processing

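No called value of the 29 genes changed sign under any alternative. Of 2070 refitted values of the 29 genes and Ehmt2, 46 changed sign without a call in either fit. These were at most 0.25 log2 units in size. For the 29 genes, the count for CFA in WT (15) was 0 with the compared groups only and 0 to 23 when 1 library was left out. For CFA in iKO (0) it was 6 with DESeq2, 16 with the compared groups only and 0 to 13 with 1 library left out. For iKO against WT under vehicle (16) the range was 0 to 22, under CFA (0) it was 0 to 11 with 1 by DESeq2, and for the difference between responses (12) it was 0 to 22. The replicate numbers were compared as pairs: deviations of same-numbered libraries correlated at -0.31 to 0.14 across the 6 pairs of groups. With 2 libraries a group, this cannot show whether same-numbered libraries share more than a number. A replicate block gave 14, 0, 8, 0 and 3 genes in the 5 comparisons. Of all genes tested, 12.5%, 0%, 12.6%, 1.02% and 5.25% then passed. Over all genes, counts with 1 library left out were 259 to 7474 for CFA in WT (3406), 0 to 6951 for CFA in iKO (8), 394 to 8464 for the genotypes under vehicle (3564), 73 to 5819 under CFA (345) and 228 to 8303 for the difference (1895). With the compared groups only they were 754, 8309, 8179 and 33 in the 4 comparisons of groups. For CFA in iKO, no gene filter gave 510, DESeq2 3364, legacy = FALSE 181 and the replicate block 0. For the genotypes under CFA, DESeq2 gave 1169, legacy = FALSE 542 and the replicate block 207, and for the difference DESeq2 gave 3901 and the replicate block 1062. DESeq2 moved the median of all genes to -0.19 for CFA in WT, -0.10 for the genotypes under vehicle and 0.12 for the difference, while the median of the 29 genes was 0.65, 0.61 and -0.75. The cause of these changes was not tested. Where 1 library of a group was left out, the lone one was assumed to vary like the others.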
